A study of Homo sapiens with 21 samples.

Results

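The genes described here are 10 transcriptional outputs of the ERK (extracellular signal-regulated kinase) pathway, taken by name from the 53515 genes counted in each of 21 RNA-seq libraries. They are the dual-specificity phosphatases DUSP4, DUSP5 and DUSP6, the Sprouty and SPRED inhibitors SPRY2, SPRY4 and SPRED1, the ETS factors ETV4 and ETV5, and EGR1 and PHLDA1. Their Ensembl identifiers were each matched to 1 gene, and each had counts in 20 or 21 of the libraries.

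In the ERK cascade, a growth factor receptor activates RAS, which activates RAF kinases, then MEK and then ERK. Active ERK switches on a set of genes within minutes to hours, and many of their products act back on the cascade. DUSP phosphatases remove the activating phosphates from ERK and related kinases, while Sprouty and SPRED proteins act upstream, at the level of receptors, RAS and RAF. The mRNA levels of these genes are therefore often read together as a measure of ERK pathway output, although other signals also control each of them.

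The 21 libraries came from 17 cancer cell lines, 7 parental cell lines and 10 cell lines made resistant to a drug from them. HepG2 (liver) was the parental cell line of HepG2S1 and HepG2S3, both resistant to sorafenib, an inhibitor of RAF and receptor kinases. PancVB (pancreas) was that of PancB1Q and PancB1V, resistant to 5-fluorouracil, and HCC4006P1 (lung) that of HCC4006ER, resistant to the EGFR inhibitor erlotinib. HCC4006P2 and HCC827P (both lung) gave rise to HCC4006GR and HCC827GR, resistant to gefitinib, which also inhibits EGFR. UWB1.289 (ovary) was the parental cell line of U10 and U100, resistant to olaparib, and IGROV-1 (ovary) that of IGROV-1/CDDP, resistant to cisplatin. The resistant cell lines had been grown in rising doses of drug over months, and whether a drug was present when RNA was taken is not given in the sources used here. By their names HCC4006P1 and HCC4006P2 are stocks of 1 cell line. Replicate libraries, 2 for each, exist for 4 cell lines (HepG2, HepG2S3, HCC4006P1 and HCC4006ER), and 13 have a single library. Replicate error therefore could be measured in 2 of the 10 pairs. Nothing states that replicate libraries came from separate cultures, so p-values measure the spread between these libraries, which may be technical.

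For 6 of the 10 genes the reference tables held the DNA around the start of transcription, from 250 bases before it to 50 bases after it (RefSeq, GRCh38.p14). The 4 genes without an entry are DUSP4, DUSP5, ETV4 and ETV5. The windows of 4 of the genes that fell in both replicated pairs are printed 5′ to 3′ on the strand of the gene. SPRED1 also fell in both, with log2 fold changes of -0.43 in HepG2S3 and -1.49 in HCC4006ER, and its window is not printed. Capitals mark matches to a CArG box (the site of serum response factor), an ETS site (CCGGAA), a cyclic AMP response element half-site (TGACGT) or an AP-1 site (TGANTCA), each searched on both strands. The windows are chr5:138465229-138465528 (plus strand) for EGR1, chr12:76031727-76032026 (minus strand) for PHLDA1, chr12:89352452-89352751 (minus strand) for DUSP6 and chr5:142324198-142324497 (minus strand) for SPRY4.
EGR1: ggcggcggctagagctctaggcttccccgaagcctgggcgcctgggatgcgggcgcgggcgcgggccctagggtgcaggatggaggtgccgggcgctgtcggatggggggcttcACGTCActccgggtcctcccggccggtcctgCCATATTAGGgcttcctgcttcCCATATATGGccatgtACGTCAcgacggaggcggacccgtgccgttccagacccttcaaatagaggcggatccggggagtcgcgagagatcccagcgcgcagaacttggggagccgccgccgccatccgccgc
PHLDA1: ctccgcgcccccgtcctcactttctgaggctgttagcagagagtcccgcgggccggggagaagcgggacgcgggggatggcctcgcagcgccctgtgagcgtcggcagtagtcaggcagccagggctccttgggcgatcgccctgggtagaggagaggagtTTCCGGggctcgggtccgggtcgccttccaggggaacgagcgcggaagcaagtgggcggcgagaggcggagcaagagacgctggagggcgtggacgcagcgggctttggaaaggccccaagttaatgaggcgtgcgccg
DUSP6: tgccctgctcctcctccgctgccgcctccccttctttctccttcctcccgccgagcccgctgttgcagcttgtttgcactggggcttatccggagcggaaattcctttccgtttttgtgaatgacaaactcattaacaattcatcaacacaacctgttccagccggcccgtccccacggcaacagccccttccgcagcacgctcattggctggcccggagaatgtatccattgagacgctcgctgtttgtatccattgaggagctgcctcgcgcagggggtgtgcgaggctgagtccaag
SPRY4: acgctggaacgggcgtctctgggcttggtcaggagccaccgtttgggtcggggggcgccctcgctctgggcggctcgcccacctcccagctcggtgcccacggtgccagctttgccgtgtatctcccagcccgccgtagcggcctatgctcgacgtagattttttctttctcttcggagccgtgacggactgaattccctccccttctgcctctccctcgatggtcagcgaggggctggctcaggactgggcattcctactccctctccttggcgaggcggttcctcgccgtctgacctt

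The EGR1 window held 2 CArG boxes, beginning 105 and 83 bases before the start, flanked by half-sites at 136 and 67 bases before it. A CArG box was present in 1.293% of the 35116 windows of the table and a half-site in 7.98%. The PHLDA1 window held 1 ETS match, 89 bases before the start, and an ETS match was present in 17.2% of all windows. The SPRY2 window that begins at base 80341077 of chromosome 13 held the other ETS match among the 6 genes. The DUSP6, SPRY4 and SPRED1 windows held none of the 4 motifs, and no window of the 6 genes held an AP-1 site, which 7.71% of all windows did. These matches describe letters in a window of 300 bases and not binding.

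The libraries held between 9851195 and 36639473 counts on genes, and 3 counts, the smallest number taken as detected, corresponded to between 0.0819 and 0.305 CPM (counts per 1000000 counts on genes). Replicate 1 of HCC4006P1 had no counts over a stretch of the genome in which replicate 2 had 18.1% of its counts. DUSP4 is the only one of the 10 genes inside that stretch, so its level in HCC4006P1 is that of replicate 2. The CPM of the other genes in replicate 1 are raised by 22.1% for this reason. The summed level of 4 liver markers (ALB, AFP, APOA1 and TTR) was 16437 CPM in HepG2, 0 in HepG2S1 and 17.2 CPM in HepG2S3. That of 4 lung epithelial markers (NKX2-1, NAPSA, SFTPB and SFTA3) was 0.450 CPM in HCC4006P1 and 0.535 CPM in HCC4006ER, against 296 CPM in HCC4006P2 and 101 CPM in HCC827P. It was therefore not shown that HepG2S1, HepG2S3, HCC4006P1 and HCC4006ER are the cells their labels name, and the results below that rest on them carry that doubt. Of 3 fibroblast markers, DCN was at 0.0136 CPM in HepG2, 399 CPM in HepG2S1 and 345 CPM in HepG2S3, and LUM at 0.028, 135 and 36.5 CPM. PDGFRB was lower in these derivatives, at 8.09 CPM in HepG2, 2.03 CPM in HepG2S1 and 6.88 CPM in HepG2S3. In HCC4006ER all 3 were higher than in HCC4006P1, with DCN at 12.7 against 0 CPM, LUM at 115 against 0.079 CPM and PDGFRB at 35.8 against 0.104 CPM. CDH1, the epithelial cadherin, went from 144 CPM in HepG2 to 0.528 CPM in HepG2S3 and from 510 CPM in HCC4006P1 to 9.49 CPM in HCC4006ER. Mitochondrial genes took 6.58% and 7.08% of the counts in the HepG2 libraries, 5.53% and 3.94% in HepG2S3, 5.46% in HCC4006P1 replicate 2, and 2.84% and 2.77% in HCC4006ER. The part of these marker and mitochondrial differences in the results below was not tested. The other cell lines each had at least 1 marker of their labelled tissue above 10 CPM, which does not establish their identity. PancVB passed on KRT19 (677 CPM) and SOX9 (94.3 CPM), which were at 1723 and 153 CPM in HCC4006P1. The other pancreatic markers, PDX1 and MUC1, were at 0.184 and 3.73 CPM in PancVB. IGROV-1 passed on PAX8 (664 CPM), while the ovarian markers WT1, MUC16 and EMX2 were at 0, 0.473 and 0.0364 CPM.

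The plot of levels by library shows the 10 genes side by side. Expression of the set was highest, by the mean of centred log2(CPM + 1) values, in HCC4006P1 (1.32), HepG2 (1.19), HCC4006P2 (1.16) and HCC4006GR (1.00). It was lowest in HepG2S3 (-1.51) and HepG2S1 (-1.13), so that HepG2 and its own derivatives stood near opposite ends of the 17 cell lines. IGROV-1 (-0.87) and HCC4006ER (-0.82) came next from below. These means use CPM, so the HCC4006P1 value includes the raised CPM of replicate 1, and the order of the highest cell lines rests on that scale. In bulk libraries a lower level in every cell and fewer cells with the transcript cannot be told apart.

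**Figure D1:**
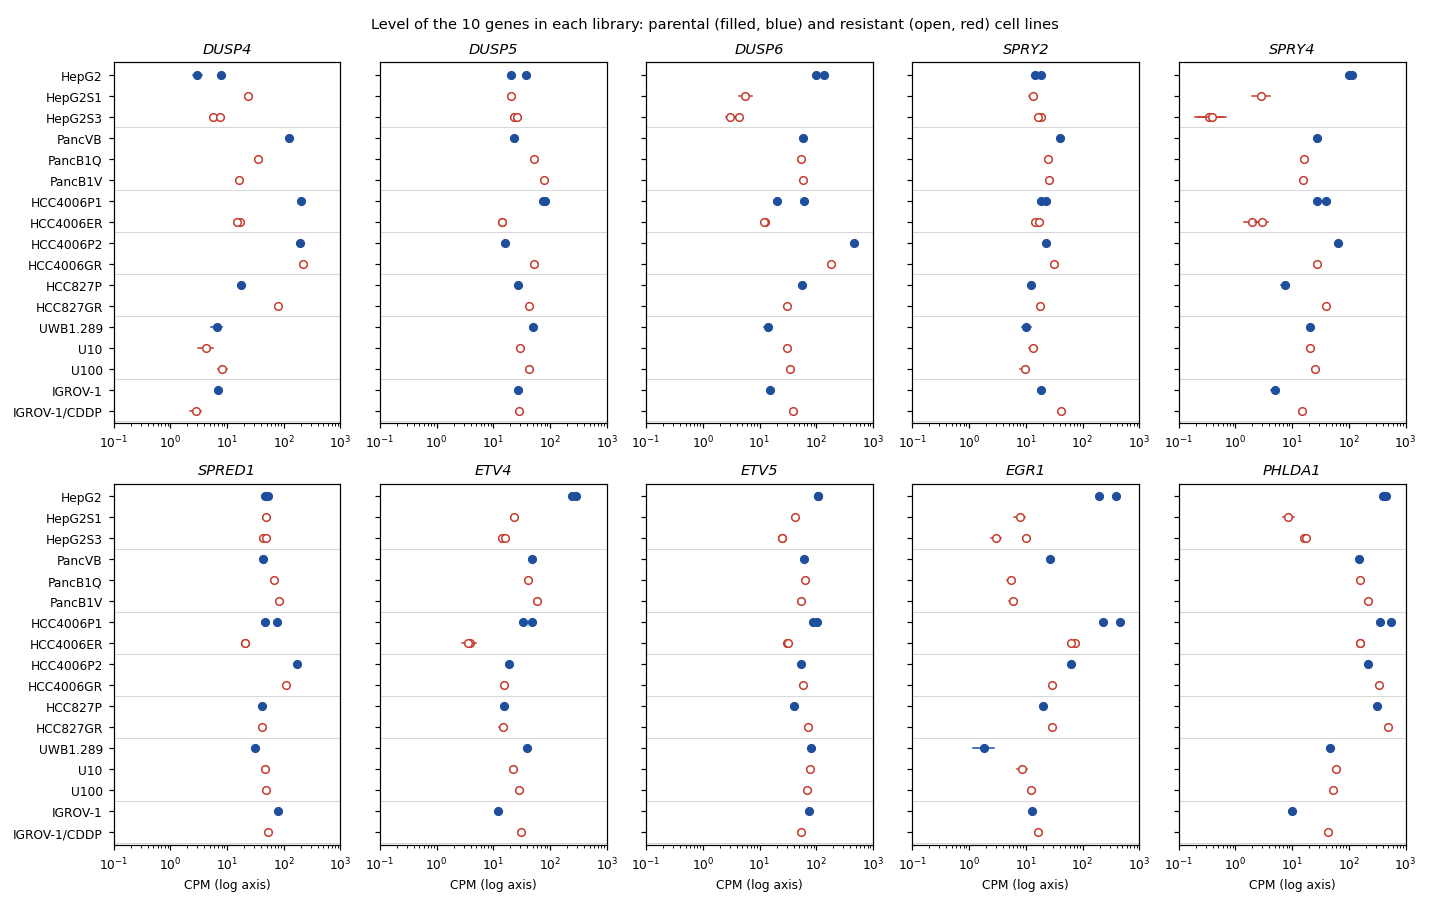
Each point is the level of 1 gene in 1 library, in CPM on a log axis, with its 95% Wilson counting interval as a bar where it is wider than the point. Filled blue points are parental and open red points resistant cell lines, grouped by parental cell line, and the HCC4006P1 library without DUSP4 counts is left out of the DUSP4 panel. SPRY4, EGR1, PHLDA1 and DUSP6 were near the top of their range in HepG2 and near the bottom in HepG2S1 and HepG2S3. ETV4 was highest in HepG2, but in HepG2S1 (23.0 CPM) it was at the median of the 17 cell lines.

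Among the phosphatases, DUSP6, the cytoplasmic phosphatase that acts on ERK, had the widest range, from 3.68 CPM in HepG2S3 to 468 CPM in HCC4006P2 (median 38.4 CPM over 17 cell lines). DUSP6 (12:89741012-89746278, GRCh37, minus strand) was at 139 and 100 CPM in the HepG2 libraries, 5.58 CPM in HepG2S1, and 3.06 and 4.31 CPM in the HepG2S3 libraries. Every HepG2 library was above every library of its derivatives. It was at 61.2 and 20.3 CPM in HCC4006P1 and at 12.4 and 12.0 CPM in HCC4006ER, so the groups did not overlap, but the parental libraries differed by 1.55 on the log2(CPM + 1) scale, the largest replicate difference of this gene. HCC4006GR (179 CPM) was below HCC4006P2 (468 CPM) and HCC827GR (31.1 CPM) below HCC827P (56.3 CPM). In the ovarian pairs the order was the other way, with 14 CPM in UWB1.289, 30.4 CPM in U10 and 35.1 CPM in U100, and 15.2 CPM in IGROV-1 against 38.4 CPM in IGROV-1/CDDP. The differences in these 5 unreplicated pairs were all beyond counting error but within the replicate difference of 1.55. That difference includes the raised CPM of HCC4006P1 replicate 1. With TMM-scaled libraries the 2 HCC4006P1 libraries were closer, at 53.3 and 23.4 CPM, so the comparison with 1.55 holds for unscaled CPM alone. PancVB (57.4 CPM), PancB1Q (53.4 CPM) and PancB1V (58.8 CPM) were close to each other.

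DUSP4, a nuclear phosphatase of ERK and related kinases (8:29190581-29208201, GRCh37, minus strand), ranged from 2.81 CPM in IGROV-1/CDDP to 216 CPM in HCC4006GR. It moved in opposite directions in different pairs. It was at 202 CPM in the usable HCC4006P1 library and at 16.7 and 14.8 CPM in HCC4006ER, and it was at 122 CPM in PancVB, 35.5 CPM in PancB1Q and 16.5 CPM in PancB1V. It was higher in HCC827GR (77.8 CPM) than in HCC827P (17.5 CPM), and higher in HepG2S1 (23.9 CPM) than in HepG2 (3.0 and 7.69 CPM). HepG2S3, at 5.75 and 7.54 CPM, lay between the HepG2 libraries. HCC4006P2 (196 CPM) and HCC4006GR (216 CPM) were close to the level of the other HCC4006 stock.

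DUSP5, a nuclear phosphatase selective for ERK (10:112257665-112271291, GRCh37, plus strand), had a narrower range, from 14.2 CPM in HCC4006ER to 79.6 CPM in PancB1V. It was at 83.2 and 73.8 CPM in HCC4006P1 and at 14.5 and 14 CPM in HCC4006ER. Against that fall, it was higher in PancB1Q (51.6 CPM) and PancB1V (79.6 CPM) than in PancVB (23.3 CPM), and higher in HCC4006GR (51.8 CPM) than in HCC4006P2 (16.4 CPM). In HepG2 (20.6 and 38.1 CPM), HepG2S1 (20.5 CPM) and HepG2S3 (23.1 and 25.8 CPM) the derivatives were at the level of the lower parental library. DUSP4 and DUSP5 thus differed in opposite directions in both pancreatic pairs, with log2 fold changes of -1.76 and 1.11 in PancB1Q and of -2.82 and 1.73 in PancB1V, which share the PancVB library.

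Among the inhibitors of receptor and RAS signalling, SPRY4 (5:141689992-141706020, GRCh37, minus strand) had the largest spread of the 10 genes, a ratio of 291 between HepG2 and HepG2S3. Its levels were 114 and 99.9 CPM in HepG2, 2.84 CPM in HepG2S1, and 0.344 and 0.392 CPM in HepG2S3, which are 11 and 12 counts. It was at 39.3 and 28.1 CPM in HCC4006P1 and at 1.97 and 2.93 CPM in HCC4006ER. Both groups of resistant libraries lay below all libraries of their parental cell line. HCC4006GR (27.6 CPM) was below HCC4006P2 (64.7 CPM), while HCC827GR (39.6 CPM) was above HCC827P (7.44 CPM) and IGROV-1/CDDP (15.0 CPM) above IGROV-1 (4.95 CPM). These 3 differences exceeded the largest replicate difference of SPRY4, 0.47 on the log2(CPM + 1) scale.

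SPRY2 (13:80910111-80915261, GRCh37, minus strand), the other Sprouty gene of the set, varied little, from 9.54 CPM in U100 to 41.3 CPM in IGROV-1/CDDP. It was at 18.4 and 14.5 CPM in HepG2, 13.5 CPM in HepG2S1, and 18.4 and 16.1 CPM in HepG2S3, where the groups overlapped. It was at 22.8 and 18.5 CPM in HCC4006P1 and at 14.7 and 17 CPM in HCC4006ER. Its only difference of 2-fold or more was in IGROV-1/CDDP, at 41.3 CPM against 18.4 CPM. SPRED1 (15:38545037-38649450, GRCh37, plus strand), which brings the RAS inactivator neurofibromin to the membrane, ranged from 20.6 CPM in HCC4006ER to 173 CPM in HCC4006P2. It was at 75.7 and 46.2 CPM in HCC4006P1 and at 20.6 CPM in both HCC4006ER libraries. In HepG2 (46.1 and 52.3 CPM), HepG2S1 (48.2 CPM) and HepG2S3 (43 and 47.7 CPM) its levels overlapped. SPRY4 and SPRY2 therefore did not move together in the HepG2 pairs.

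ETV4 and ETV5 encode ETS-domain transcription factors of the PEA3 group. ETV4 (17:41605212-41656988, GRCh37, minus strand) was at 286 and 248 CPM in HepG2, 23.0 CPM in HepG2S1, and 14.4 and 15.8 CPM in HepG2S3. It was at 48.3 and 34.0 CPM in HCC4006P1 and at 3.90 and 3.60 CPM in HCC4006ER, the lowest level in the 17 cell lines. The only 2-fold rise was in IGROV-1/CDDP (30.5 CPM against 12.2 CPM). ETV5 (3:185764103-185828107, GRCh37, minus strand) varied over a smaller range, from 24.9 CPM in HepG2S3 to 106 CPM in HepG2. It was at 107 and 105 CPM in HepG2, 42.3 CPM in HepG2S1, and 24.5 and 25.3 CPM in HepG2S3, and at 102 and 89.1 CPM in HCC4006P1 against 30.9 and 32.0 CPM in HCC4006ER. Its replicate libraries differed by at most 0.19 on the log2(CPM + 1) scale, the smallest such value of the 10 genes. In the other 7 pairs ETV5 stayed within 2-fold.

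EGR1 (5:137801168-137804992, GRCh37, plus strand) is an immediate-early zinc finger transcription factor whose RNA appears within minutes of stimulation and decays fast. It was at 390 and 198 CPM in HepG2, 7.82 CPM in HepG2S1, and 3.0 and 10.2 CPM in HepG2S3. It was at 460 and 227 CPM in HCC4006P1 and at 74.1 and 62.7 CPM in HCC4006ER. Resistant libraries were below all parental libraries in both cell lines, although replicate libraries of HepG2S3 differed by 1.48 on the log2(CPM + 1) scale. EGR1 was also lower in PancB1Q (5.39 CPM) and PancB1V (6.0 CPM) than in PancVB (26.7 CPM). It was higher in U10 (8.48 CPM) and U100 (12.6 CPM) than in UWB1.289, which had the lowest level of all (1.81 CPM).

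PHLDA1 (12:76419227-76425556, GRCh37, minus strand) encodes a protein with a pleckstrin homology-like domain and is induced by growth factors. Its levels were 455 and 394 CPM in HepG2, 8.63 CPM in HepG2S1, and 16.2 and 17.4 CPM in HepG2S3. They were 562 and 355 CPM in HCC4006P1 and 156 and 157 CPM in HCC4006ER. IGROV-1/CDDP (43.6 CPM) was above IGROV-1 (10.0 CPM), and the remaining 6 pairs were within 2-fold. PHLDA1 was higher in the resistant cell line in 7 of the 10 pairs, the most of any of the 10 genes. Among these rises, only those in HCC4006GR (0.67) and IGROV-1/CDDP (2.01) exceeded its largest replicate difference of 0.66 on the log2(CPM + 1) scale. Those in PancB1Q and U100 were within counting error. Its mean change over 7 parental cell lines was -0.39, and the share of all genes higher in as many pairs was not counted.

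The first replicated comparison asked which of these genes differ between sorafenib-resistant HepG2S3 and HepG2. By edgeR's quasi-likelihood test with Benjamini-Hochberg adjustment over 16929 genes, 7 of the 10 genes fell and 0 rose. Of all genes tested, 32.1% were called lower and 31.4% higher. The median log2 fold change was -3.43 over the 10 genes and -0.012 over all genes. SPRY4 fell most, with a log2 fold change of -8.48 ± 0.21 (SE, 2 against 2 libraries, adjusted p = 2.59e-05), followed by EGR1 at -5.80 ± 0.72 (adjusted p = 0.00152) and DUSP6 at -5.34 ± 0.29 (adjusted p = 0.000107). PHLDA1 (-4.98 ± 0.16, adjusted p = 3.90e-05), ETV4 (-4.46 ± 0.16, adjusted p = 4.57e-05) and ETV5 (-2.41 ± 0.13, adjusted p = 0.000104) also fell. With each library left out in turn, SPRY4 ranged from -8.59 to -8.38, EGR1 from -6.91 to -5.16 and DUSP6 from -5.58 to -5.08. Every fit with a library left out set 1 library against 2 and assumed that the lone library varies like the other cell line, so the calls of such fits overstate the certainty. SPRED1 fell by 0.43 ± 0.14 (adjusted p = 0.0428), and this call was lost with no filter on low counts (adjusted p = 0.0981), without HepG2S3 replicate 1 (adjusted p = 0.399) and without HepG2S3 replicate 2 (adjusted p = 0.234).

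DUSP5 (-0.58 ± 0.30, adjusted p = 0.152), SPRY2 (-0.25 ± 0.20, adjusted p = 0.316) and DUSP4 (0.0021 ± 0.46, adjusted p = 0.997) did not pass the edgeR test in HepG2S3. All 3 depended on which HepG2 library was used. Without HepG2 replicate 1, DUSP5 was called lower at -0.95 and DUSP4 lower at -0.53 (adjusted p = 0.0104), while without HepG2 replicate 2, DUSP4 was called higher at 0.81 and SPRY2 lower at -0.43. The median of all expressed genes was 0.28 higher in HepG2S3 and 0.25 higher in HepG2S1 than in HepG2 when CPM were used, and 0.14 and 0.20 lower with TMM-scaled libraries. On CPM, SPRY2 was 0.065 higher in HepG2S3, so the sign of its small difference turned with the scaling. The 6 large falls had the same direction on both scales.

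**Figure D2:**
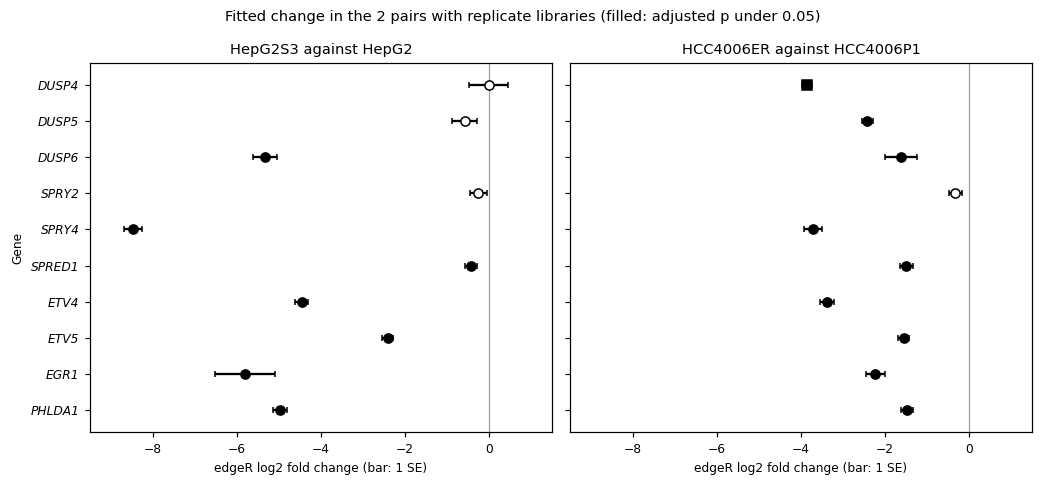
Points are edgeR log2 fold changes of the 10 genes in HepG2S3 against HepG2 (left) and HCC4006ER against HCC4006P1 (right), with 1 SE as a bar on a linear axis, filled where the adjusted p is under 0.05. The square is DUSP4 fitted without HCC4006P1 replicate 1. SPRY4 lies farthest from 0 on the left, and DUSP4, SPRY4 and ETV4 on the right, while SPRY2 lies near 0 in both.

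The second replicated comparison set erlotinib-resistant HCC4006ER against HCC4006P1. Over the 12791 genes outside the stretch without counts, 8 of 9 genes of the set fell and 0 rose by the edgeR test, where 24.9% of all genes were called lower and 24.1% higher. The median log2 fold change was -1.61 over these 9 genes and 0.0092 over all genes. SPRY4 (-3.71 ± 0.23, adjusted p = 5.43e-05) and ETV4 (-3.39 ± 0.17, adjusted p = 2.39e-05) fell most. DUSP5 (-2.42 ± 0.14, adjusted p = 4.45e-05) and EGR1 (-2.23 ± 0.23, adjusted p = 0.000454) were next. DUSP6, ETV5, SPRED1 and PHLDA1 had log2 fold changes between -1.61 and -1.48, with adjusted p between 0.000192 and 0.0130. DUSP6 was the least certain of them. Its log2 fold change was -0.88 without HCC4006P1 replicate 1 and -2.11 without replicate 2, and its adjusted p was 0.117 when the genes of the empty stretch were kept in the fit.

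SPRY2 (-0.32 ± 0.16, adjusted p = 0.132) did not pass, but did so in a fit of 1 against 2 libraries without HCC4006P1 replicate 1 (-0.37, adjusted p = 0.0263). DUSP4 came from a fit of 1 against 2 libraries over 16597 genes, in which 31.2% of genes were called lower. Its log2 fold change was -3.86 ± 0.12 with an edgeR adjusted p of 7.65e-219, a value that assumes that HCC4006P1 varies like HCC4006ER and so overstates the certainty. The fall in DUSP4 (202 to 15.8 CPM) was larger than its largest replicate difference, 1.12 on the log2(CPM + 1) scale.

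Over all 10 pairs the direction of these genes was not shared. The heat map of pairwise changes gives log2 fold changes of CPM + 1, which understate the change of genes with few counts. HCC4006ER had the most lower genes. Of the 10, 9 were 2-fold or more lower in that cell line and 0 higher, where 11.7% of all expressed genes were lower and 11.8% higher. DUSP6 was among the 9 only through HCC4006P1 replicate 1, since its log2 fold change was -0.69 without it. In HepG2S1, 6 genes were lower and 1 (DUSP4) higher, beside 18.4% and 25.5% of all genes, and in HepG2S3 6 were lower and 0 higher, beside 17.7% and 27.3%. The 6 genes were the same in both, SPRY4, EGR1, DUSP6, PHLDA1, ETV4 and ETV5, and the pairs share the HepG2 libraries. HCC4006GR had 3 lower genes (DUSP6, SPRY4 and EGR1) and 1 higher gene (DUSP5), beside 7.47% and 7.75% of all genes. The falls of DUSP6 and EGR1 there were within the largest replicate difference of each gene.

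The other 6 pairs each had at most 2 genes that were 2-fold or more lower. In PancB1Q and PancB1V, DUSP4 and EGR1 were 2-fold or more lower and DUSP5 higher, beside 9.41% lower and 6.1% higher of all genes in PancB1Q and 7.25% and 8.89% in PancB1V. In HCC827GR, SPRY4 and DUSP4 were higher and 0 genes lower, beside 10.6% higher and 7.67% lower of all genes. In U10 and U100, which share the UWB1.289 library, DUSP6 and EGR1 were higher and 0 genes lower, beside 6.27% higher and 5.11% lower of all genes in U10 and 6.43% and 1.73% in U100. IGROV-1/CDDP had the most higher genes, 5 (PHLDA1, SPRY4, DUSP6, ETV4 and SPRY2), beside 5.55% of all genes. DUSP4 was lower there by 1.06 on the log2 scale, beside 7.21% of all genes, a value within its largest replicate difference. The rises of DUSP6 in U10, U100 and IGROV-1/CDDP were also within the largest replicate difference of that gene.

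**Figure D3:**
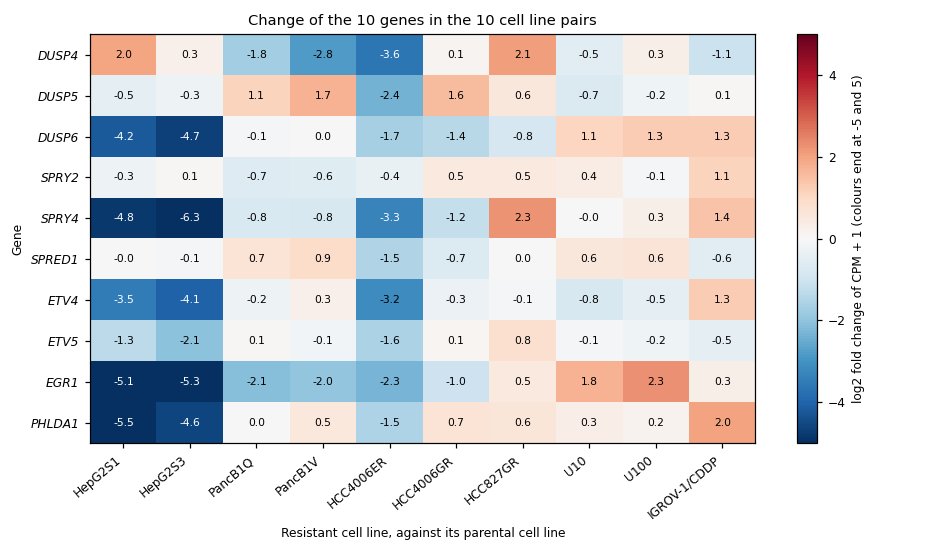
Each cell is the log2 fold change of CPM + 1 of 1 gene (rows) in 1 resistant cell line against its parental cell line (columns), printed and coloured blue where lower and red where higher, with colours ending at -5 and 5. The HepG2S1, HepG2S3 and HCC4006ER columns are mostly blue, and the IGROV-1/CDDP column holds 5 values of 1 or more.

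Summed over the 10 pairs, 29 of 100 gene values were 2-fold or more lower and 15 higher, against 9.33% and 11.6% of the values of all expressed genes. The 3 pairs in which a cell line lacked the markers of its labelled tissue (HepG2S1, HepG2S3 and HCC4006ER) held 21 of the 29 lower values. Of the 30 values in these 3 pairs, 21 were lower and 1 higher, against 15.9% and 21.5% of the values of all genes. In the other 7 pairs, 8 of 70 values were lower and 14 higher, against 6.52% and 7.36% of the values of all genes. Of the 100 values, 52 exceeded the largest replicate difference measured for that gene, as did 51.9% of the values of all expressed genes, so the set did not stand out by this count.

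With the parental cell line as the unit, no shared change passed the test. Counts were summed to 1 resistant and 1 parental profile for each of 7 parental cell lines and compared with edgeR in a model with a term for each parental cell line. Of 19829 genes, 0 (0%) passed an adjusted p of 0.05, 920 had an unadjusted p under 0.05, and DESeq2 called 102. Of the 10 genes, 0 passed in either tool and 0 had an unadjusted p under 0.05. The largest fitted falls were EGR1 (-0.92 ± 0.89, adjusted p = 0.998), ETV4 (-0.87 ± 0.71, adjusted p = 0.994) and SPRY4 (-0.82 ± 1.17, adjusted p = 0.998). EGR1 was lower in 4 of the 7 parental cell lines, ETV4 in 5 and SPRY4 in 4. The SD of the change across parental cell lines was largest for SPRY4 (2.71), EGR1 (2.35) and PHLDA1 (2.29) and smallest for SPRY2 (0.60) on the log2(CPM + 1) scale. These falls depended on single parental cell lines. With each left out in turn, EGR1 ranged from -1.44 without UWB1.289 to -0.35 without HepG2, ETV4 from -1.29 without IGROV-1 to -0.38 without HepG2, and SPRY4 from -1.43 without HCC827P to -0.15 without HepG2. Without HCC4006P1, ETV4 was -0.46 and SPRY4 -0.27, and SPRY4 was -1.37 without IGROV-1 and -0.49 with both HCC4006 stocks taken as 1 parental cell line. None of these fits called a gene of the set.

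Erlotinib and gefitinib act on EGFR, which signals through ERK, so the change was also compared between the 3 lung pairs selected with them and the other 4 parental cell lines. The edgeR interaction test called 0 (0%) of 19829 genes, with 1258 at an unadjusted p under 0.05 and 145 called by DESeq2. It called 0 of the 10 genes, as did DESeq2. SPRED1 had the smallest unadjusted p of the set (0.154 by edgeR, adjusted p = 0.826), with a mean change of -0.72 ± 0.78 (SD, n = 3 lung pairs) against 0.19 ± 0.63 (SD, n = 4 others). DUSP6 was lower in all 3 lung pairs, with log2 fold changes of -1.66 (HCC4006ER), -1.38 (HCC4006GR) and -0.84 (HCC827GR). Among the other 4 it ranged from -4.44 to 1.3. The means and changes given here average both HCC4006P1 libraries, while the test used replicate 2 alone. Over pairings of single libraries, DUSP6 in HCC4006ER ranged from -2.26 to -0.67. The HCC4006GR and HCC827GR values were within the largest replicate difference of DUSP6, 1.55 on CPM. The SE of the interaction was between 0.50 and 2.52 on the log2 scale for the 10 genes.

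The libraries labelled as the 2 HCC4006 stocks, of which HCC4006P1 lacked the lung markers, differed in these genes. HCC4006P2 had 468 CPM of DUSP6 and HCC4006P1 40.7 CPM, a log2 difference of 3.49, and SPRED1 (173 against 60.9 CPM) was also higher in HCC4006P2. EGR1 (61.6 against 344 CPM), DUSP5 (16.4 against 78.5 CPM) and PHLDA1 (214 against 459 CPM) were lower in HCC4006P2. ETV4 (19.3 against 41.1 CPM) and ETV5 (53.6 against 95.4 CPM) were also lower in HCC4006P2, and SPRY4 (64.7 against 33.7 CPM) was higher. HCC4006P2 had a single library. All of these differences exceeded the largest replicate difference of their gene, and those of DUSP4 and SPRY2 did not. The share of all genes that did so between the stocks was not counted. Resistant cell lines of 1 parental cell line were closer to each other in these 10 genes. PancB1Q and PancB1V differed by 2-fold or more only in DUSP4, U10 and U100 in none of the 10 genes, and HepG2S1 and HepG2S3 in DUSP4 (23.9 against 6.64 CPM) and SPRY4 (2.84 against 0.368 CPM). The shares of all genes that differed by 2-fold or more between these cell lines or between the stocks were not counted. Whether the set differs from other genes in this is therefore not known.

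Across 17 cell lines, 42 of 45 pairs of genes of the set (93.3%) had a correlation of log2(CPM + 1) above 0, with a median Pearson r of 0.34. Over all pairs of the 13591 genes with a median of at least 1 CPM, 52.1% were above 0 and the median r was 0.019. The closest were DUSP6 and SPRY4 (r = 0.80) and SPRY4 and ETV5 (r = 0.80), and DUSP4 and ETV4 were lowest (r = -0.10). These are descriptions, since resistant and parental cell lines are related and each cell line shares a library across genes. Among these 13591 genes, those outside the set and its lists that were most like the mean of the set were RAPGEF5 (r = 0.88), CMIP (r = 0.87), SPATS2L, CRYL1 and CLMN (r = 0.84 each, n = 17). RAPGEF5 was also most like DUSP6 (r = 0.88), followed by BAZ1A (r = 0.86) and KCTD14 (r = 0.85). RAPGEF5, an exchange factor for RAP proteins, ranged from 0 in HepG2S1 to 106 CPM in HCC4006P2.

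Of 18 cascade genes from RAS to the ERK substrate kinases, 3 rose and 8 fell in HepG2S3 by edgeR, with a median log2 fold change of 0.047, and of the 15 tested in HCC4006ER 3 rose and 5 fell, with a median of 0.0078. Beside these counts, 31.4% of all genes tested were called higher and 32.1% lower in HepG2S3, and 24.1% and 24.9% in HCC4006ER. KSR1, a scaffold of the cascade, had opposite signs, falling by 1.59 in HepG2S3 (edgeR adjusted p = 0.000477) and rising by 1.42 in HCC4006ER (adjusted p = 0.000391). In HCC4006ER, MAP2K1, which encodes MEK1, fell by 1.84 (edgeR adjusted p = 0.000274) and RASA1, a RAS inactivator, by 1.83 (adjusted p = 0.000393). MAP2K2, which encodes MEK2, rose there by 0.77 (edgeR adjusted p = 0.0108). RPS6KA3, a kinase activated by ERK, fell by 2.60 in HepG2S3 (edgeR adjusted p = 0.000894). It went the other way in HCC4006ER, from 109 CPM in HCC4006P1 replicate 2 to 252 CPM. Its log2 fold change there was 1.02 in the fit of 1 against 2 libraries.

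Of 11 related phosphatase, Sprouty, SPRED and ETS genes, 3 of 10 tested rose and 4 fell in HepG2S3, and 2 of 9 tested rose and 3 fell in HCC4006ER. These counts were close to the shares of all genes called, 31.4% higher and 32.1% lower in HepG2S3 and 24.1% and 24.9% in HCC4006ER. DUSP1, a phosphatase that favours stress kinases over ERK, moved against the set. It was at 87.0 CPM in HepG2, 525.7 CPM in HepG2S1 and 584 CPM in HepG2S3 (edgeR log2 fold change 2.43, adjusted p = 0.00166), and it rose from 37.4 to 104 CPM in HCC4006ER (1.57, adjusted p = 0.00134). Its change averaged 1.44 over 7 parental cell lines and was positive in 6. SPRY1 fell by 5.86 on the log2 scale in HepG2S3 (edgeR adjusted p = 7.23e-05) and with a log2 fold change of -2.88 in HCC4006ER (adjusted p = 0.00107). DUSP9, an ERK phosphatase, went from 265 CPM in HepG2 to 8.06 CPM in HepG2S3 (edgeR adjusted p = 4.42e-05).

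Of 13 other genes that ERK signalling is known to induce, 8 of 12 tested fell and 1 (JUNB) rose in HepG2S3 (median log2 fold change -1.63), and 9 of 11 tested fell and 1 (EPHA4) rose in HCC4006ER (median -1.03). Of all genes, 32.1% were called lower in HepG2S3 and 24.9% in HCC4006ER, and 31.4% and 24.1% higher. IER3, an immediate-early gene, fell by 5.09 in HepG2S3 (edgeR adjusted p = 9.60e-05), and its log2 fold change in HCC4006ER was -0.76 (adjusted p = 0.00215). FOSL1, an AP-1 subunit, fell by 1.33 (edgeR adjusted p = 0.00547) and 1.35 (adjusted p = 0.0433). EPHA4, an ephrin receptor, moved the other way, rising by 2.82 in HCC4006ER (edgeR adjusted p = 5.00e-05) and being higher in the resistant cell line for 7 of 7 parental cell lines, by 1.23 ± 0.96 on the log2(CPM + 1) scale (SD, n = 7). In the HepG2 cell lines EPHA4 was near the limit of detection, at 0.102 CPM or less. It was also low in PancVB, PancB1Q and PancB1V (0.230, 0.350 and 0.765 CPM) and in UWB1.289, U10 and U100 (0.430, 0.683 and 1.53 CPM). Its edgeR adjusted p over 7 parental cell lines was 0.478, and the share of all genes higher in 7 of 7 was not counted.

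**Figure D4:**
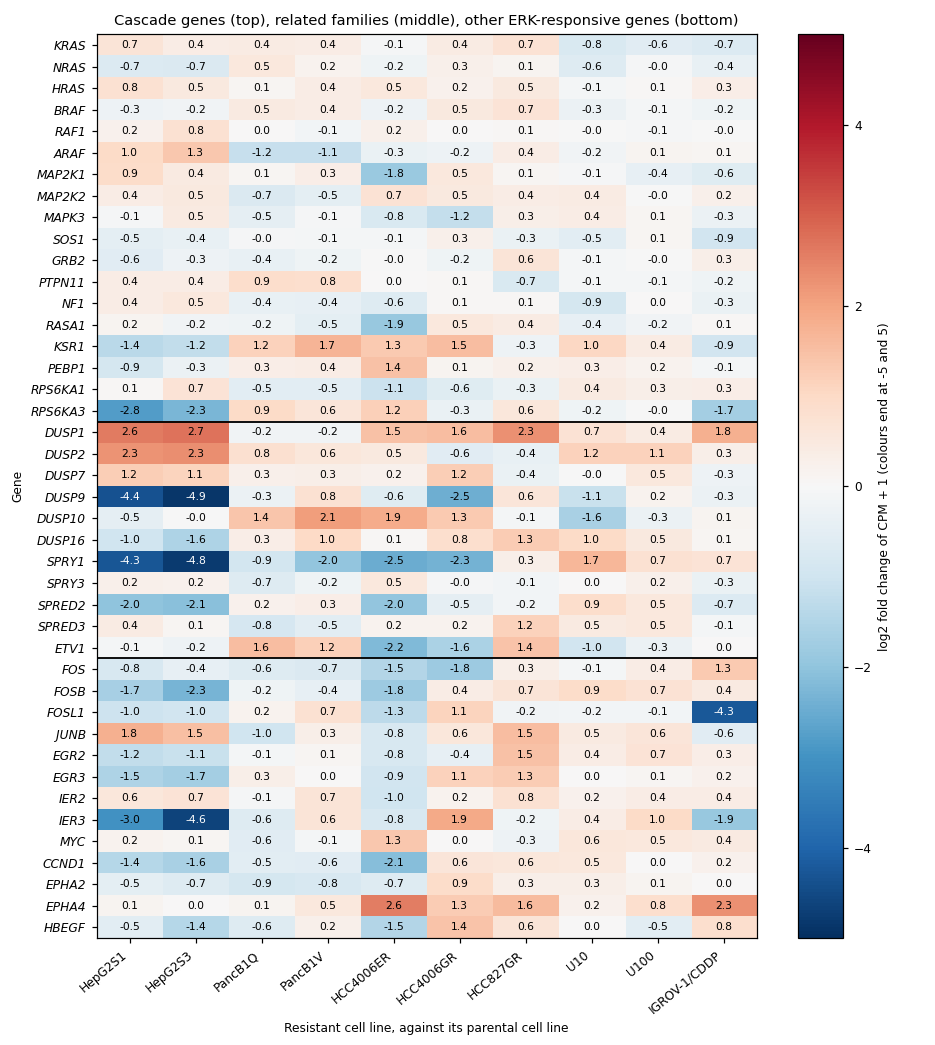
Each cell is the log2 fold change of CPM + 1 of 1 gene (rows) in 1 resistant cell line against its parental cell line (columns), for 18 cascade genes, 11 related family genes and 13 other ERK-responsive genes, separated by black lines, with colours ending at -5 and 5. Blue cells gather in the HepG2S1, HepG2S3 and HCC4006ER columns of the lower blocks, and the DUSP1 row is red in these columns.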

How the data were processed

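RNA was sequenced from 17 cell lines in 21 libraries. The authors deposited whole-number read counts per gene for each library, without normalization. Per the submitters' processing notes, Bowtie, TopHat, SAMtools and HTSeq were used with hg19. The methods also name a 3′ end kit mapped with STAR, and which kit gave which library is not given in the sources used here. Lines of the count files that name no gene held 28.0% to 42.8% of all counted reads and were left out. Gene symbols and positions were matched by identifier to a GENCODE annotation on GRCh37 for 45100 of 53515 genes. The letter A or B at the end of a cell line label was read as replicate 1 or 2. The titles number the HepG2 libraries alike, and the HepG2S3 libraries too, so it is unsure that these are independent.

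CPM are counts per 1000000 counts on genes. Replicates entered by their mean CPM, and log2 fold changes are differences of log2(CPM + 1), resistant minus parental. Expressed genes had at least 1 CPM in either cell line of a pair. Intervals are 95% Wilson intervals, which hold counting error alone, as PCR duplicates can be counted more than once. Replicate libraries differed by more than counting error (chi-square per degree of freedom of 5.30 to 87.6), so none was counted as a duplicate. The edgeR quasi-likelihood test was used with TMM normalization, filterByExpr and Benjamini-Hochberg adjustment, at an adjusted p under 0.05. HCC4006ER was compared with HCC4006P1 on genes outside the stretch without counts in HCC4006P1 replicate 1, and HCC4006P1 entered the fit over 7 parental cell lines by replicate 2 alone. Alternatives used RLE size factors, DESeq2, no filter on low counts, the replicate number as a block, a pseudocount of 0.1 CPM, TMM-scaled libraries and each library or parental cell line left out in turn. The tests were tested on simulated counts.

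The 10 genes, the lists of related genes and the tests were chosen with earlier results of these data known. All 10 genes are reported, and 1 gene of the cascade list is not reported here. From each list, the genes with the largest and the smallest mean change over 7 parental cell lines and genes called by edgeR with a log2 fold change of at least 1 could be named, up to 4 a list. MAP2K2 was named in addition, beside MAP2K1. Genes most like the set had the highest Pearson r over 17 cell lines. Versions were R 4.3.3, edgeR 4.0.16, DESeq2 1.42.0, Python 3.11.15, pandas 2.3.3, numpy 2.4.6 and matplotlib 3.10.9.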

Additional observations from a re-analysis of the deposited data

Results flagged for a closer look

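ETV4 in HCC4006ER stood apart from the other resistant cell lines. Its level there was 2.25 on the log2(CPM + 1) scale, while the other 9 resistant cell lines lay between 3.96 and 5.88, a gap of 0.472 of the whole range. Both HCC4006ER libraries had the low level (3.90 and 3.60 CPM). Of 30 such checks of the 10 genes, 1 was marked, and chance marks about 1 in 20.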

How the results depend on the processing

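Across the alternatives, 6 to 9 of the 10 genes were called lower in HepG2S3, and 7 to 9 of 9 in HCC4006ER. Without HepG2 replicate 2, 1 gene (DUSP4, 0.81) was called higher in HepG2S3, and the count was 0 to 1 with each library left out in turn. DUSP4 in HepG2S3 turned to -0.53 without HepG2 replicate 1 and -0.19 without HepG2S3 replicate 2. The number of all genes called in HCC4006ER was 6266, 3417 with all genes kept, and 4046 to 8370 with each library left out, where removing either HCC4006ER library gave the low values. Over 7 parental cell lines DESeq2 called 102 genes, and in the EGFR inhibitor comparison 145, against 0 by edgeR. In the latter, edgeR called 1 gene with no filter on low counts and 0 to 1 with each parental cell line left out, and ETV4, at -0.52, ranged from -1.45 without HepG2 to 0.43 without HCC4006P1, and was 0.29 without IGROV-1. With TMM-scaled libraries 0 genes of the set were 2-fold lower in IGROV-1/CDDP, in place of 1. An alternative chosen after seeing the data left out the 3 pairs with a cell line lacking its tissue markers, which took the lower values from 29 to 8 and the higher from 15 to 14. Among values of single genes, 217 edgeR and all 27 DESeq2 values kept direction and call, 4 edgeR values turned, of which 1 also crossed the threshold, and 9 crossed it without turning, and the causes were not tested. The replicate number as a block gave 10561 calls in HepG2S3 against 10744, and 7787 in HCC4006ER against 6266, and of the 10 genes only SPRED1 in HepG2S3 lost its call (adjusted p = 0.0663). Deviations of same-numbered libraries correlated across genes at r = 0.047 in the HepG2 and 0.41 in the HCC4006 pair, and with 2 pairs each and no stated link the samples share only a number. Depth limits SPRY4 in HepG2S3, at 11 and 12 counts.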
